A study of Mus musculus with 32 samples.

Results

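The genes described here are 40 genes of glycolysis and of the response of cells to low oxygen, taken by symbol from a list of these pathways. All 40 were found among the 22329 genes of the deposited table. By role they comprise 4 transporters of glucose and lactate, 11 enzymes of upper glycolysis, 6 of lower glycolysis, 3 enzymes that set the fate of pyruvate, 7 genes of oxygen sensing and transcription, and 9 effectors induced by hypoxia. The question was whether their change from cell culture to tumor differed between a parental line and a line that is resistant to blockade of PD-1, an inhibitory receptor of T cells.

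The line was MC38, derived from a colon adenocarcinoma of the mouse, in its parental form and in the form named MC38-resistant, and its polyadenylated RNA was sequenced. The 4 groups were 13 parental tumors, 12 resistant tumors, 2 parental cultures and 5 resistant cultures. Both kinds of tumor grew under the skin of C57BL6/J mice that received no treatment, and the cultures were untreated too, so no library comes from an animal under anti-PD-1. The labels give no age or sex of the mice. They do not say how resistance was obtained, whether the resistant form is 1 clone, or whether the culture libraries come from separate dishes, so that a p-value there measures the spread between libraries, which may be technical.

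Cells take up glucose through GLUT transporters, split it in glycolysis to pyruvate, and, when oxygen is short, reduce the pyruvate to lactate and export it. Oxygen acts through prolyl hydroxylases, which mark the alpha subunits of the hypoxia-inducible factors (HIF) for destruction. When oxygen falls the subunits persist, pair with ARNT and bind a short DNA core near the genes of glucose uptake, glycolysis, pH control, mitophagy, collagen maturation and vessel growth. Because HIF-1 alpha is controlled mainly as a protein, the level of its mRNA is a poor measure of its activity. Solid tumors grown under the skin commonly hold poorly perfused regions, and cells in a dense dish can also run short of oxygen.

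Values are TPM, the share of transcripts on a fixed total, scaled for transcript length, and can therefore be compared between genes. A log2 difference below is on the scale of log2(TPM + 1), which understates the change of genes near 0. A gene was called when limma's adjusted p was under 0.05 over all genes tested. The number of reads behind each library is unknown, so only the spread between libraries gives a precision. Tumor and culture libraries carry different series names in the labels, so the setting and the library series cannot be told apart. Between 4.65% and 14.4% of TPM came from mitochondrially encoded genes in tumors and between 5.12% and 8.08% in cultures. Parental tumors 2, 3, 7 and 8 stood apart by a GC index of 0.54 to 0.81, against a median of -0.02 in parental tumors and a range of -0.52 to 0.26 in resistant tumors. This index is the log2 level of GC-rich genes minus that of GC-poor genes. The epithelial label was not met by markers: of 10 markers of colon epithelium, 9 stayed under 1 TPM in both parental cultures and all 10 did so in the 5 resistant cultures.

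Tumor libraries also hold RNA of host cells, and in bulk RNA fewer cells of a type and less RNA per cell cannot be told apart. Ptprc, the leukocyte surface protein CD45, lay between 14.5 and 53.7 TPM in parental tumors and between 19.7 and 50.3 in resistant tumors, and did not pass 0.147 in any culture. The sum of 7 macrophage markers was 271 to 1001 TPM in parental tumors, 231 to 443 in resistant tumors and 0 to 3.97 in cultures. The sum of 7 endothelial markers was 68.2 to 138 TPM, 53 to 115 and 0.279 to 8.19 in the same order. The sum of 6 fibroblast and pericyte markers was 118 to 976 TPM in parental tumors and 311 to 1415 in resistant tumors, with 32.8 to 60.6 in parental and 257 to 843 in resistant cultures. These markers rise from culture to tumor with many of the genes below, and their part in those rises was not tested.

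The DNA core that HIF binds reads ACGTG, or less often GCGTG. In RefSeq promoters of build GRCm38.p6, 36 of the 40 genes could be matched. In the 250 bases before the start of transcription, searched on both strands, ACGTG was present in 25 of their 54 promoter windows (46.3%). The share was 16.57% of all 32851 windows of that length and 20.25% of the 14458 windows of genes that reached 1 TPM in at least 2 of the 32 libraries. GCGTG was in 27 of the 54 windows (50.0%), 28.16% of all windows and 41.42% of those of the expressed genes. A match is a description of the letters, not evidence of binding, and the windows of 1 gene can overlap.

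The stretches of 90 bases that follow show the core in 8 genes whose levels are described below, from every role except oxygen sensing and transcription. Each is written 5′ to 3′ on the strand of its gene, with ACGTG or its complement CACGT in capitals, and overlapping matches run together.
Slc2a1, chr4:119108655-119108744, plus strand: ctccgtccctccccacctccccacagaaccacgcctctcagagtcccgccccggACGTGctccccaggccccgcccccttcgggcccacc
Hk2, chr6:82774459-82774548, minus strand: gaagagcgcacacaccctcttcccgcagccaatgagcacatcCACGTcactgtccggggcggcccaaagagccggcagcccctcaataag
Pgk1, chrX:106186927-106187016, plus strand: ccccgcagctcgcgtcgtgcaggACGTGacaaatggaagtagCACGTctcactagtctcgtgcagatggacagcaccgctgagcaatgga
Ldha, chr7:46845714-46845803, plus strand: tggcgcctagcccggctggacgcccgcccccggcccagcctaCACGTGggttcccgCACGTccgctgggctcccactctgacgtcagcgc
Car9, chr4:43506936-43507025, plus strand: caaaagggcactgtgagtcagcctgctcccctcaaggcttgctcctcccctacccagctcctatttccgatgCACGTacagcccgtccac
Bnip3, chr7:138909566-138909655, minus strand: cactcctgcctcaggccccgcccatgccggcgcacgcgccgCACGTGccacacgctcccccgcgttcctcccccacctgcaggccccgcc
Ankrd37, chr8:45999851-45999940, minus strand: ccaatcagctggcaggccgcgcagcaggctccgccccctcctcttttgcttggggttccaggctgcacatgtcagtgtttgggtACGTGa
P4ha1, chr10:59323206-59323295, plus strand: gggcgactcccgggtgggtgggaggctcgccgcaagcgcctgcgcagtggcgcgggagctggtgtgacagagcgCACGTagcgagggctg
All 8 stretches lie upstream of the annotated start. In Ldha, which encodes lactate dehydrogenase A, and in Bnip3, a mitophagy receptor, the core forms the palindrome CACGTG. The 8 genes did not move alike: Car9 and Bnip3 were far higher in resistant tumors than in resistant cultures, and Ldha, with 3 matches in its stretch, was not.

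The cultures themselves spread widely, and every change from culture to tumor rests on them. Parental culture 2 stood above parental culture 1 in most of the genes, most of all in the effectors of hypoxia. Bnip3 was at 66.0 TPM in parental culture 1 and 438 TPM in parental culture 2. Car9, which encodes the carbonic anhydrase that lets hypoxic cells keep their pH, was at 1.03 and 16.8 TPM. Aldoc, the aldolase isozyme best known from brain, was at 1.58 and 28.2 TPM. Parental culture 2 thus lay near the tumors in Bnip3, whose 13 parental tumors ran from 235 to 609 TPM, and near the lowest parental tumor in Car9 (14 TPM). Egln3, the prolyl hydroxylase that HIF itself induces, was at 15.3 and 48.6 TPM, so that parental culture 2 was above all 25 tumors, the highest of which had 41.6 TPM. Ndrg1, a stress gene of slow-growing and hypoxic cells, was at 54.2 and 201 TPM, and Ankrd37, an ankyrin repeat gene under HIF control, at 11.2 and 32.3 TPM. Both values of Ankrd37 were below every tumor, and those of Ndrg1 below every parental tumor.

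Over the 33 genes at 1 TPM or more in all 7 cultures, the ratio of parental culture 2 to parental culture 1 had a median of 1.71. It was above 1 in 31 of the 33 and at least 1.5 in 19, whereas the median over 9751 genes was 1.07 and 14.07% reached 1.5. By role, the median ratio was 2.41 in the effectors and 1.86 in oxygen sensing, against 1.46 in upper and 1.29 in lower glycolysis. Among other pathway genes it was 1.84 in 23 further HIF targets, 1.08 in 20 genes of pyruvate entry and the TCA cycle and 1 in 7 of the pentose phosphate pathway. The 2 libraries differed in GC index (-0.19 and -0.41), and its part in these ratios was not tested.

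Resistant culture 1 stood above the other 4 resistant cultures in the same manner but by less. Bnip3 was at 219 TPM there and at 99.4, 55.3, 52.3 and 39.4 TPM in resistant cultures 2 to 5. Car9 was at 7.62 TPM against 0.42 to 2.12, and Hif1a, the oxygen-regulated HIF subunit, at 120 TPM against 58.1 to 72.7. The ratio of resistant culture 1 to the median of the others had a median of 1.38 over the 33 genes, above 1 in 27 and at least 1.5 in 13, against 0.98 over 9751 genes, of which 9.58% reached 1.5. Resistant culture 1 also had the highest mitochondrial share of the cultures, 8.08%. Values without these libraries are given below for the genes and counts that they move most.

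**Figure D1:**
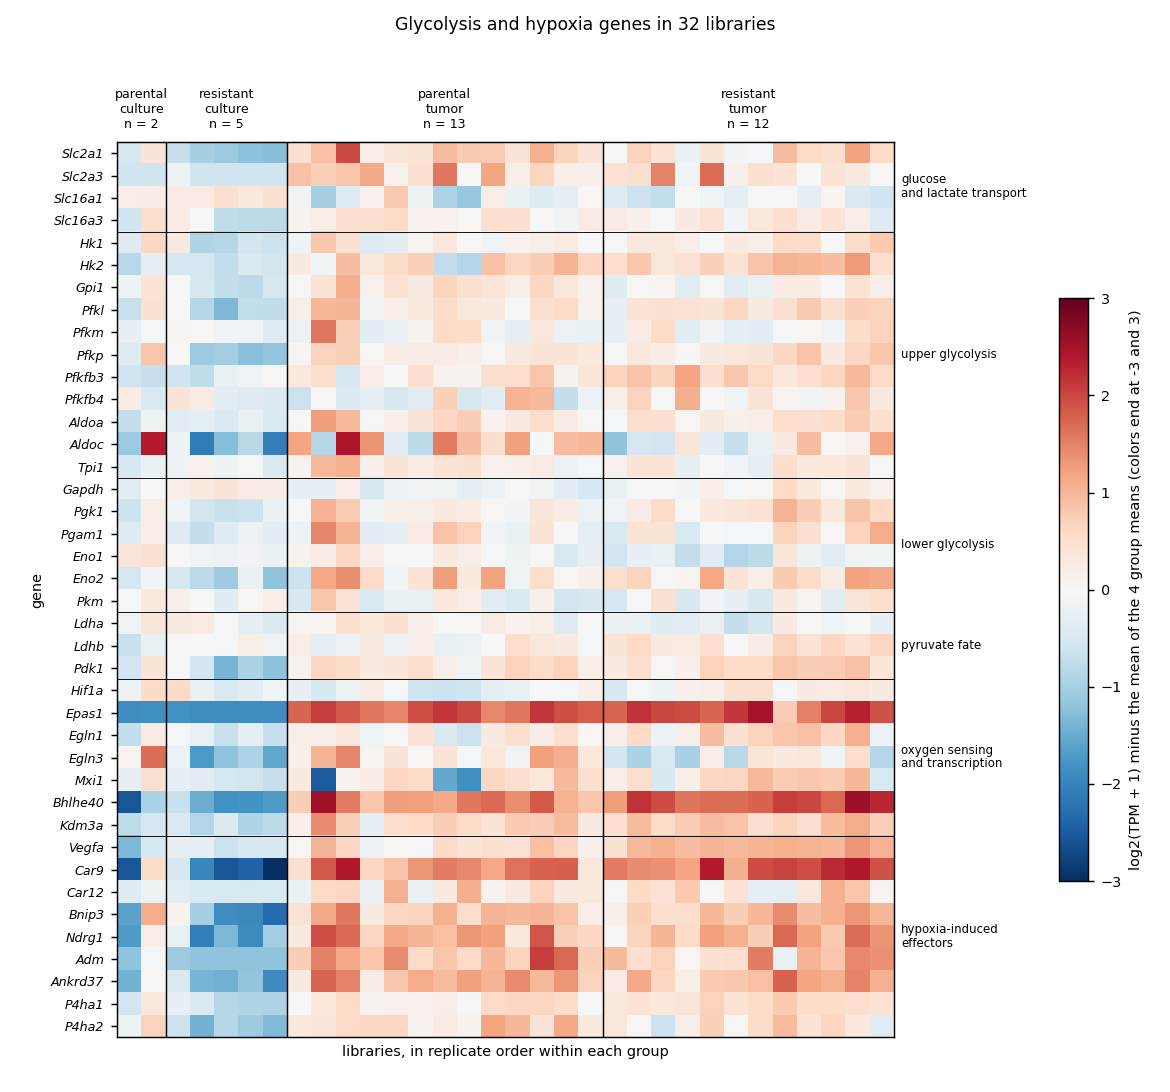
Level of the 40 genes (rows, by role) in the 32 libraries (columns, by group in replicate order), as log2(TPM + 1) minus the mean of the 4 group means of that gene; colors end at -3 and 3. The second parental culture and the first resistant culture are redder than the other cultures in Bnip3, Car9, Egln3 and Ndrg1, and the tumors of both lines are red in Epas1, Bhlhe40 and the effectors.

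Of the effectors induced by hypoxia, 5 of 9 were called higher in parental tumors than in parental culture and all 8 tested in the resistant line, while most enzymes of glycolysis did not pass the test in the parental line. In the parental line 11 of the 40 genes were called higher in tumors and 0 lower. Over all 14348 genes tested, 16.1% were called higher and 5.99% lower. The median log2 difference of the 40 was 0.46, against 0.21 over all genes tested, and 32 were positive. Without adjustment, limma gave p under 0.05 for 16 higher and 0 lower. With array weights and robust moderation, 15 were called higher and 1, Eno1, lower.

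In the resistant line 30 of 39 tested genes were called higher and 1 lower. Over all 12312 genes tested, 35.3% were called higher and 15.0% lower. The median log2 difference of the 39 was 0.99, against 0.18 over all genes, and 34 were positive. Car12, a second membrane carbonic anhydrase, was too low to be tested. Quantile normalization moved the median of all genes to -0.04 in the parental and -0.10 in the resistant line, and median-of-ratios scaling moved the resistant one to 0.06. Under quantile normalization the calls over all genes were 1622 higher and 1492 lower in the parental line, where the main counts were 2310 and 859. In the resistant line they were 2693 and 3470, where the main counts were 4342 and 1847. The median of the 40 genes under that scaling was 0.38 in the parental line and that of the 39 was 0.82 in the resistant line.

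Among the transporters, 1 of 4 was called higher in the parental line (16.1% of all genes). In the resistant line 3 were called higher and 1 lower (35.3% and 15.0% of all genes). Slc2a1, the main glucose transporter GLUT1, ran from 206 to 706 TPM in parental tumors (median 283), where the parental cultures had 123 and 233 TPM. It ran from 154 to 413 TPM in resistant tumors (median 249), where the resistant cultures had 111, 88.9, 83.5, 76.1 and 73.7 TPM. Parental culture 2 fell within the range of its tumors, whereas all resistant cultures were below all resistant tumors. The log2 difference was 0.79 (SE 0.33, limma adjusted p = 0.0937) in the parental line and 1.47 (SE 0.19, adjusted p = 1.86e-06) in the resistant line. The parental value of Slc2a1 was 0.34 without parental culture 1 and 1.25 without parental culture 2. Slc2a3, the high-affinity transporter GLUT3, was listed at 0 in both parental cultures and in 4 of the 5 resistant ones, and reached 0.511 to 3.50 TPM in parental and 0.435 to 3.86 TPM in resistant tumors. It was called higher in both lines, and no fold is given against 0.

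Slc16a1 encodes the monocarboxylate transporter MCT1, which can carry lactate in either direction. Its 5 resistant cultures had 66.7 to 79.6 TPM and the 12 resistant tumors 33.1 to 59.9 TPM, with no overlap. It was the only one of the 39 genes called lower in resistant tumors (log2 difference -0.64, SE 0.13, limma adjusted p = 0.000379). Parental tumors ran from 25 to 98.2 TPM around the parental cultures at 64.4 and 65.9 TPM, and no call was made. Slc16a3, the lactate exporter MCT4, was called higher in resistant tumors (149 to 279 TPM against 111 to 233 in culture) and not in parental tumors (184 to 296 TPM against 129 and 284).

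Of all genes tested, 16.1% were called higher in the parental line and 35.3% in the resistant line. In upper glycolysis 2 of 11 genes, Aldoa and Pfkfb3, were called higher in the parental line, which is near that share, and 8 of 11 in the resistant line. None was called lower in either line by limma, and at an unadjusted p under 0.05 no upper glycolysis gene was lower either. Hk2, the inducible hexokinase that traps glucose in the cell, had a median of 62.6 TPM in parental tumors, with the lowest at 21.3 and the highest at 82.7. The parental cultures had 21.9 and 32.1 TPM. The groups overlapped through parental tumors 7 and 8, at 23.4 and 21.3 TPM, which belong to the 4 of high GC index. On the log2 scale the difference was 0.95 (SE 0.41, limma adjusted p = 0.103). In resistant tumors Hk2 ran from 50.7 to 97.3 TPM, above all 5 cultures at 23.5 to 28.9 TPM, and the log2 difference was 1.28 (SE 0.14, adjusted p = 1.20e-07). Of the 13 parental tumors, 11 exceeded the mean of the parental cultures.

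Pfkp, the platelet type of phosphofructokinase, is the one gene of the 40 whose change differed between the lines after adjustment. Over all genes tested for such a difference, 2.4% were called higher. For Pfkp the changes differed by 1.25 on the log2 scale, and by 0.63 without parental culture 2. The 13 parental tumors ran from 164 to 266 TPM (median 192) and lay between parental culture 1 at 122 TPM and parental culture 2 at 289 TPM. The 12 resistant tumors ran from 157 to 293 TPM (median 204). The resistant cultures had 160, 74.7, 78.2, 66.7 and 70.6 TPM, so that only resistant culture 1 reached the range of the tumors. The log2 difference was 0.06 (SE 0.24, limma adjusted p = 0.860) in the parental line and 1.32 (SE 0.18, adjusted p = 2.84e-06) in the resistant line.

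Lower glycolysis holds Gapdh, the gene of highest level among the 40. By limma, 0 of 6 were called in the parental line, with 0 at an unadjusted p under 0.05, although array weights called Eno1 lower there. In the resistant line 3 of 6 were called higher. Of all genes, 16.1% were called higher in the parental and 35.3% in the resistant line. Gapdh, which oxidizes glyceraldehyde 3-phosphate, averaged 9566 ± 1596 TPM (SD, n = 2) in parental cultures, 9216 ± 1169 (n = 13) in parental tumors, 12702 ± 716 (n = 5) in resistant cultures and 11356 ± 1875 (n = 12) in resistant tumors. It alone took 0.731% to 1.59% of all TPM, and was called in neither line. Quantile normalization and median-of-ratios scaling called it lower in resistant tumors than in resistant culture. Pgk1, the first ATP-yielding step and the gene with 2 cores in the stretch printed above, had a median of 187 TPM in parental tumors (146 to 340), where the cultures had 106 and 187 TPM. In resistant tumors the median was 217 TPM (150 to 335), where the cultures had 103 to 150 TPM. The groups overlapped by 1 culture in each line. On the log2 scale the difference was 0.45 (SE 0.26, limma adjusted p = 0.242) in the parental and 0.88 (SE 0.16, adjusted p = 0.000114) in the resistant line.

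Of the genes that set the fate of pyruvate, 0 of 3 were called in the parental line by limma, where Ldhb had an unadjusted p of 0.029. In the resistant line 2 of 3, Ldhb and Pdk1, were called higher. The shares of all genes called higher were 16.1% and 35.3%. Ldha turns pyruvate into lactate. It ran from 1168 to 2131 TPM in parental tumors (median 1627), around the parental cultures at 1406 and 1969 TPM. Its resistant tumors ran from 926 to 1839 TPM (median 1313), around cultures at 1131 to 1845 TPM. The log2 difference was 0.01 (SE 0.19, limma adjusted p = 0.977) in the parental and -0.17 (SE 0.14, adjusted p = 0.324) in the resistant line, both smaller than the spread of the libraries, and the sign of each turned under another scaling. Pdk1, a kinase that inhibits pyruvate dehydrogenase, was at 80.5 to 145 TPM in all 12 resistant tumors and at 29.2 to 76.5 TPM in the cultures. Its log2 difference was 1.37 (SE 0.18, adjusted p = 2.52e-06) there and 0.47 (SE 0.23, adjusted p = 0.159) in the parental line, where tumors had 71.5 to 127 TPM and cultures 52.2 and 103 TPM.

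**Figure D2:**
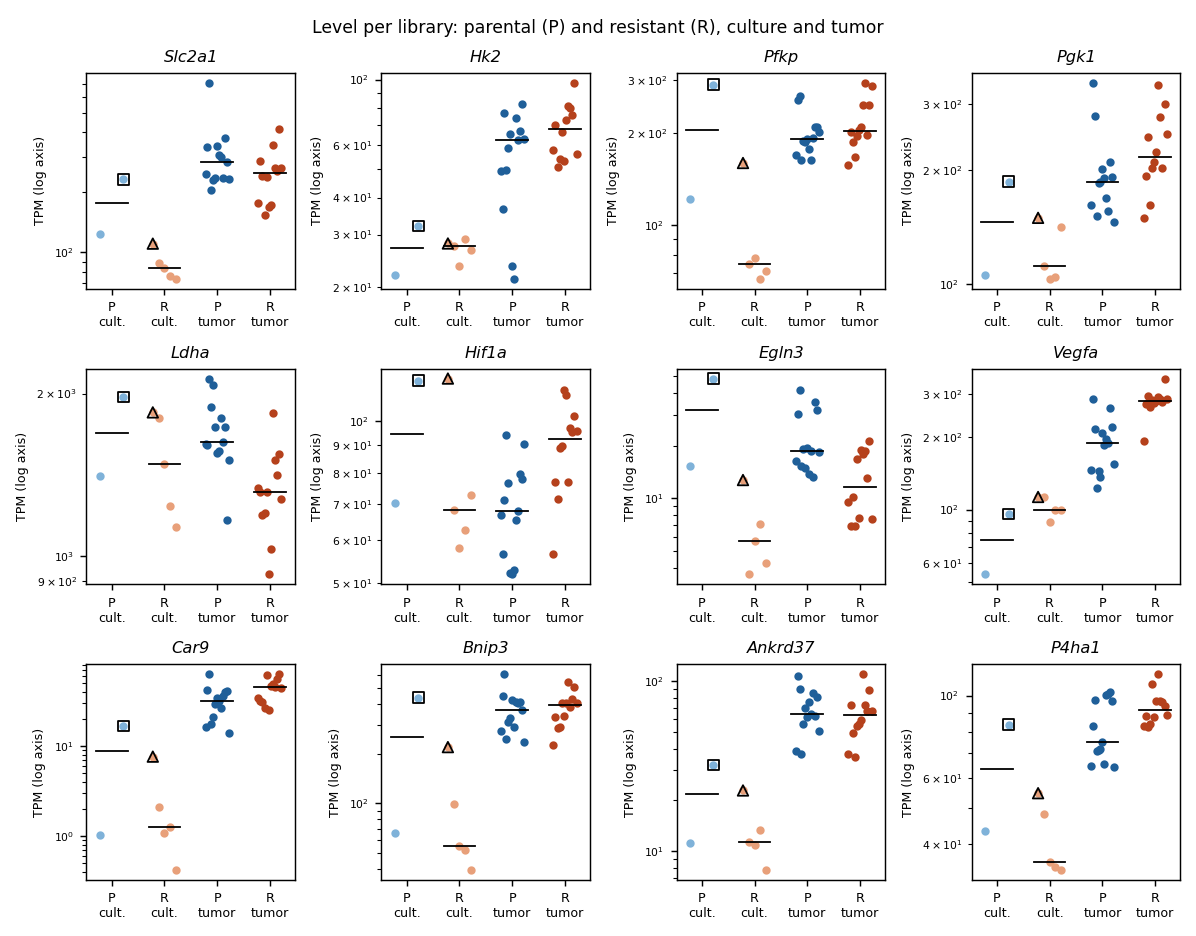
TPM on a log axis of 12 genes in each library of parental (P) and resistant (R) culture and tumor; points are libraries, bars are group medians, the square marks parental culture 2 and the triangle resistant culture 1. In Bnip3 the marked parental culture at 438 TPM sits among the tumors and the unmarked one at 66.0 TPM lies below them all.

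In oxygen sensing and transcription 3 of 7 genes were called higher in the parental line and 6 of 7 in the resistant line, with 0 called lower by limma in either and 0 lower at an unadjusted p under 0.05. Of all genes, 16.1% and 35.3% were called higher in these lines. Epas1, which encodes HIF-2 alpha, had the largest difference in the parental line. It was at 0 and 0.0269 TPM in the parental cultures, at 0 to 0.0436 TPM in the resistant cultures, at 8.99 to 15.2 TPM in parental tumors and at 5.23 to 19.5 TPM in resistant tumors. Epas1 is well known from endothelial cells and macrophages, whose marker sums also went from near 0 in culture to the ranges given above. Their part in its rise was not tested. On the log2 scale the difference was 3.68 (SE 0.23, limma adjusted p = 1.09e-09) in the parental and 3.75 (SE 0.20, adjusted p = 1.69e-12) in the resistant line. With cultures this close to 0, its size is set by the pseudocount. Hif1a ran from 51.9 to 94.0 TPM in parental tumors, where cultures had 70.4 and 119 TPM, and from 56.7 to 114 TPM in resistant tumors, where cultures had 58.1 to 120 TPM. Its log2 difference was -0.42 (SE 0.24, limma adjusted p = 0.223) and 0.26 (SE 0.16, adjusted p = 0.199), neither of which passed. Without resistant culture 1 the latter was 0.43 and Hif1a was called (adjusted p = 0.0216).

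Bhlhe40, a HIF target and clock repressor, was at 12.1 and 39.6 TPM in parental culture and at 129 to 443 TPM in parental tumors. It was at 20.9 to 48.0 TPM in resistant culture and at 185 to 456 TPM in resistant tumors. Groups did not overlap in either line. The log2 difference was 3.11 (SE 0.39, limma adjusted p = 8.09e-06) in the parental and 3.39 (SE 0.19, adjusted p = 3.62e-12) in the resistant line. Bhlhe40 and Epas1 were the 2 genes of the 11 still called in the parental line when parental culture 1 was left out, Bhlhe40 at 2.30 and Epas1 at 3.66. Kdm3a, a histone demethylase induced by HIF, ran from 35.8 to 116 TPM in parental tumors above cultures at 24.9 and 30.0 TPM, and from 60.2 to 94.4 TPM in resistant tumors above cultures at 22.7 to 31.9 TPM. It was called in both lines, with log2 differences of 1.22 (SE 0.28, adjusted p = 0.00393) and 1.44 (SE 0.12, adjusted p = 3.95e-09). Egln3 went another way. It ran from 13.3 to 41.6 TPM in parental tumors, between the parental cultures at 15.3 and 48.6 TPM for all but 3 tumors, and from 6.89 to 21.4 TPM in resistant tumors, where the cultures had 3.66 to 12.7 TPM. Its log2 difference was -0.39 (SE 0.41, adjusted p = 0.515) in the parental line and 0.87 (SE 0.28, adjusted p = 0.0153) in the resistant line. Leaving out resistant culture 2 or 5 ended the latter call. Kdm3a was not called in the parental line without parental culture 1 (1.09, adjusted p = 0.109).

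The effectors gave the clearest rise, 5 of 9 called in the parental line and all 8 tested in the resistant line, with median log2 differences of 1.34 and 2.08. Of all genes, 16.1% and 35.3% were called higher in these lines. Vegfa, the chief growth factor for blood vessels, ran from 122 to 286 TPM in parental tumors (median 188) above cultures at 53.9 and 96.0 TPM. It ran from 192 to 349 TPM in resistant tumors (median 283) above cultures at 89.2 to 113 TPM. Neither line showed overlap, and the log2 difference was 1.34 (SE 0.28, limma adjusted p = 0.00166) and 1.43 (SE 0.10, adjusted p = 2.92e-10). Adm, the vasodilator peptide adrenomedullin, was listed at 0 in parental culture 1 and in resistant cultures 2 to 5, at 1.25 TPM in parental culture 2 and at 0.0833 TPM in resistant culture 1. It reached 2.43 to 8.85 TPM in parental and 0.998 to 5.68 TPM in resistant tumors, and was called in both lines, with log2 differences of 1.69 (SE 0.38, adjusted p = 0.00349) and 1.95 (SE 0.24, adjusted p = 9.73e-07) that also depend on the pseudocount. Without parental culture 1 neither parental call was kept, at 0.93 for Vegfa and 1.11 for Adm (adjusted p = 0.141 and 0.218), and without parental culture 2 the values were 1.75 and 2.28.

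Car9 ran from 14 to 62.9 TPM in parental tumors (median 31.9) and from 24.9 to 62.4 TPM in resistant tumors (median 44.8), above all resistant cultures and parental culture 1. Only parental culture 2, at 16.8 TPM, overlapped the tumors. On the log2 scale the difference was 2.33 (SE 0.57, limma adjusted p = 0.00561) in the parental and 3.88 (SE 0.30, adjusted p = 1.06e-09) in the resistant line. The parental value of Car9 was 0.77 without parental culture 1 (adjusted p = 0.507) and 3.90 without parental culture 2, and the resistant value was 4.29 without resistant culture 1. Bnip3 ran from 235 to 609 TPM in parental and from 226 to 542 TPM in resistant tumors. Its log2 difference was 1.05 (SE 0.43, adjusted p = 0.0921) and 2.27 (SE 0.28, adjusted p = 8.34e-07), and the parental value became 2.41 without parental culture 2 and -0.30 without parental culture 1. Ndrg1 and Ankrd37 were called in both lines, at 1.81 and 1.71 in the parental and 2.32 and 2.21 in the resistant line. Without parental culture 1 their parental values were 0.87 and 0.98 and neither was called (limma adjusted p = 0.375 and 0.193), and without parental culture 2 they were 2.74 and 2.43.

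P4ha1 and P4ha2 encode the catalytic subunits of collagen prolyl hydroxylase. P4ha1 was at 82.2 to 114 TPM in resistant tumors above cultures at 34.2 to 54.8 TPM, and at 64.6 to 102 TPM in parental tumors around the higher of the cultures at 43.4 and 83.6 TPM. P4ha2 was at 28.4 to 87.4 TPM in resistant tumors, with cultures at 16.2 to 28.5 TPM, and at 48.3 to 104 TPM in parental tumors, with cultures at 40.3 and 73.2 TPM. Both were called in the resistant line, at 1.16 (SE 0.11, limma adjusted p = 3.28e-08) and 1.33 (SE 0.20, adjusted p = 1.73e-05). In the parental line the values of 0.41 and 0.27 did not pass (adjusted p = 0.226 and 0.506).

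The parental counts depended on which of its cultures was kept. Without parental culture 1, only 2 of the 40 genes were called higher, the median log2 difference was 0.05 and 21 were positive. Without parental culture 2, 11 were called, of which 8 were among the first 11, the median was 0.86 and 35 were positive. Leaving out 1 culture leaves the other as a lone sample, which is then assumed to vary as the tumors do. Without the 4 parental tumors of high GC index, a setting added after the data were seen, 14 were called higher and 2, Eno1 and Pkm, lower. In the resistant line, the count of higher calls stayed between 30 and 33 when each library was left out in turn.

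The difference between the lines in this change was tested in 1 fit over all 32 libraries, as the resistant change minus the parental change. It was positive, meaning a larger rise in the resistant line, in 32 of the 40 genes, with a median of 0.32 against 0.01 over the 15061 genes tested. Only 1 gene, Pfkp, was called, and 0 were called lower. Over all genes, 2.4% were called higher and 1.61% lower, so 1 call in 40 genes was about the rate at large. At an unadjusted p under 0.05 limma gave 10 higher and 0 lower, and with array weights and robust moderation 9 were called higher and 0 lower. For Pfkp the difference of changes was 1.25 (SE 0.31, limma adjusted p = 0.0113).

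The other genes with unadjusted p under 0.05 did not pass adjustment. P4ha1 had a difference of changes of 0.75 (SE 0.24, limma adjusted p = 0.0786), P4ha2 1.05 (SE 0.36, adjusted p = 0.101) and Pdk1 0.89 (SE 0.31, adjusted p = 0.104). Car9 had 1.55 (SE 0.64, adjusted p = 0.212), Egln3 1.25 (SE 0.52, adjusted p = 0.216) and Bnip3 1.22 (SE 0.53, adjusted p = 0.253). Hif1a had 0.67 (SE 0.29, adjusted p = 0.239), Hk1 0.87 (SE 0.315, limma adjusted p = 0.128) and Pfkl 0.71 (SE 0.326, adjusted p = 0.292). Other genes of the same pathways had an unadjusted p above 0.05. Vegfa had 0.09 (SE 0.27), Ldha -0.18 (SE 0.24), Hk2 0.33 (SE 0.40), Pgk1 0.43 (SE 0.31) and Slc2a1 0.67 (SE 0.38), with limma adjusted p of 0.939, 0.832, 0.811, 0.590 and 0.439. By role, the difference was positive in 9 of 9 effectors and 7 of 7 genes of oxygen sensing, in 8 of 11 and 5 of 6 of upper and lower glycolysis, in 2 of 4 transporters and in 1 of 3 genes of pyruvate fate, whose median was -0.06.

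The pattern rested on 1 library. Without parental culture 2, 21 of the 40 differences were positive, the median was 0.01 against -0.04 over all genes, and 0 were called by limma, with 0 at an unadjusted p under 0.05. Bnip3 then had -0.14, Car9 -0.01, Ndrg1 -0.42, Ankrd37 -0.22 and Vegfa -0.32. Pfkp kept its direction, at 0.63. So did P4ha2, Egln3, Pdk1, Hif1a and P4ha1, whose lowest values with any 1 library left out were 0.63, 0.45, 0.40, 0.30 and 0.29. Without parental culture 1, 36 were positive, the median was 0.80 and 6 were called, namely Bnip3, Car9, Hk1, P4ha1, Pdk1 and Pfkp. Bnip3 was then at 2.57 and Car9 at 3.12. Without resistant culture 1, 5 were called, namely Bnip3, Hk1, P4ha1, Pdk1 and Pfkp, and the median was 0.48. Without resistant tumor 3, P4ha2 joined Pfkp, and without the 4 parental tumors of high GC index, Hk1 did.

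**Figure D3:**
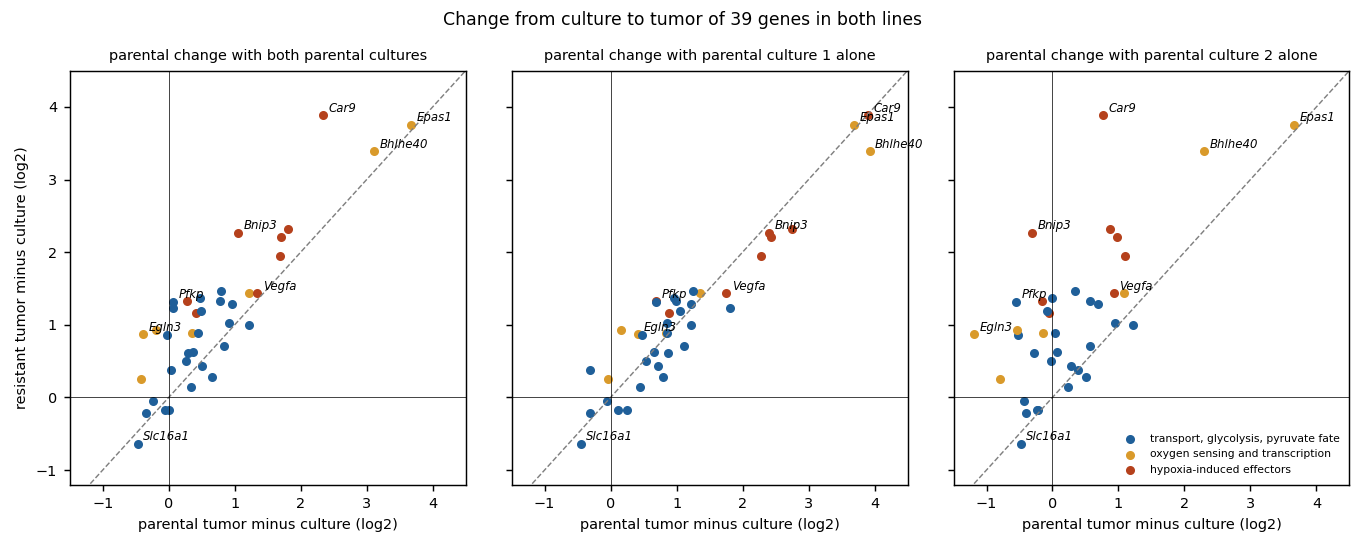
Log2 difference between tumor and culture in the resistant line (vertical) against the parental line (horizontal) for the 39 genes tested in both; the dashed line marks equal change, and colors mark the role. The panels use both parental cultures, parental culture 1 alone and parental culture 2 alone: Bnip3 moves from 1.05 to 2.41 and to -0.30 on the horizontal axis, from above the line to near it and far above it.

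Between the cultures, the resistant line was lower in 4 of 36 tested genes and higher in 0. Slc2a3, Epas1, Car12 and Adm were too low to be tested. Over all 11201 genes, 8.04% were called lower and 6.15% higher. The median log2 difference was -0.35, against -0.01 over all genes, and 11 of the 36 were positive. At an unadjusted p under 0.05 limma gave 8 lower and 3 higher, and array weights called 6 lower and 1, Gapdh, higher. The 4 calls were Egln3 at -2 (SE 0.49, limma adjusted p = 0.0266), P4ha2 at -1.32 (SE 0.28, adjusted p = 0.0143), Slc2a1 at -0.97 (SE 0.24, adjusted p = 0.0293) and Eno1, the main enolase, at -0.53 (SE 0.12, adjusted p = 0.0183). In each of them all 5 resistant cultures were below both parental cultures. Eno1 was at 2095 and 2232 TPM in the parental and at 1430 to 1628 TPM in the resistant cultures.

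The remaining genes of that comparison overlapped or missed the threshold. Car9 had -1.09 (SE 0.84, limma adjusted p = 0.430), Bnip3 -1.16 (SE 0.76, adjusted p = 0.346), Pfkp -1.14 (SE 0.39, adjusted p = 0.0826) and Pdk1 -0.75 (SE 0.38, adjusted p = 0.218). Vegfa went the other way at 0.50 (SE 0.21, adjusted p = 0.146), with 89.2 to 113 TPM in resistant cultures against 53.9 and 96.0 TPM. Pgk1 had -0.22, Ldha -0.18, Hif1a -0.31 and Hk2 0.01, with adjusted p of 0.585, 0.643, 0.523 and 0.975. Without parental culture 2 none of the 4 was called lower, Vegfa was called higher at 0.91, and the median was 0.07. Without parental culture 1, 5 were called lower and the median was -0.66. Leaving out resistant culture 3 left 1 call lower, and leaving out 4 or 5 left 2.

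Between the tumors, where no culture enters, calls went in both directions. Of 39 genes tested, 7 were called higher in resistant tumors and 4 lower, with 22 positive and a median of 0.07 against 0.04 over all 12095 genes. Over all genes, 16.3% were called higher and 13.9% lower, so the 39 genes were called about as often as genes at large. The higher ones were Vegfa, Ldhb, Pfkfb3, Gapdh, Bhlhe40, Hif1a and Egln1, a main oxygen sensor. The lower ones were Egln3, Gpi1, Eno1 and Ldha. Every one of the 11 overlapped between the lines.

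Vegfa was at 122 to 286 TPM in parental tumors (median 188) and 192 to 349 TPM in resistant tumors (median 283), and all 12 resistant tumors exceeded the parental mean. Its log2 difference of 0.59 (SE 0.12, limma adjusted p = 0.000389) was the largest of the calls upward. Bhlhe40 had medians of 184 and 281 TPM and a difference of 0.53 (SE 0.16, adjusted p = 0.0133). Pfkfb3, which makes the allosteric activator of phosphofructokinase, had medians of 32.2 and 41.4 TPM and a difference of 0.42 (SE 0.12, adjusted p = 0.00720). Hif1a, with medians of 68.0 and 92.6 TPM, had 0.36 (SE 0.11, adjusted p = 0.0170), and Gapdh had 0.30 (SE 0.09, adjusted p = 0.0118).

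The lactate dehydrogenases moved apart. Ldhb, the isozyme that favors lactate oxidation, had a median of 62.9 TPM in parental tumors (51.4 to 89.9) and 84.2 TPM in resistant tumors (61.4 to 101), a log2 difference of 0.36 (SE 0.10, limma adjusted p = 0.00569). Ldha had medians of 1627 and 1313 TPM, a difference of -0.36 (SE 0.10, adjusted p = 0.00642), and 11 of 12 resistant tumors lay below the parental mean. Gpi1, which makes fructose 6-phosphate, had medians of 987 and 783 TPM and a difference of -0.40 (SE 0.11, adjusted p = 0.00659). For Eno1 the medians were 1675 and 1346 TPM and the difference was -0.40 (SE 0.12, adjusted p = 0.0152). Egln3 had medians of 18.6 and 11.6 TPM and a difference of -0.74 (SE 0.21, adjusted p = 0.00840). Slc2a1, Hk2, Pgk1 and Car9, at -0.30, 0.34, 0.22 and 0.47, did not pass (adjusted p = 0.184, 0.159, 0.220 and 0.0837).

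Markers of other cells also differed between the tumors. In resistant tumors 6 of 7 macrophage markers were called lower, 3 of 6 fibroblast and pericyte markers higher, and 3 of 5 markers of skeletal muscle higher, a tissue that itself expresses many glycolytic genes. Of all genes, 16.3% were called higher and 13.9% lower there. The fibroblast and pericyte markers are not all confined to host cells. Dcn was at 211 to 791 TPM in resistant cultures and at 1.67 and 6.81 TPM in parental cultures. Of the 4 of these markers tested between cultures, 1 was called higher in the resistant line and 0 lower. The sum of the muscle markers ran from 5.97 to 57 TPM in parental tumors (median 26) and from 1.85 to 210 TPM in resistant tumors (median 83.9), and the part of these cells in the calls was not tested. The tumor calls also moved with 2 measures of the libraries. The GC index was higher in parental tumors (0.15 ± 0.38, SD, n = 13) than in resistant tumors (-0.18 ± 0.26, n = 12). With it as a covariate, 12 genes were called higher and 4 lower: Egln1, Hif1a, Eno1 and Gpi1 lost the call, and Aldoa, Car9, Hk1, Pfkm, Pgam1, Pgk1 and Pkm joined the higher genes and P4ha2 and Slc16a1 the lower. In those of high index, parental tumors 2, 7 and 8 had 0.610, 2.17 and 1.55 TPM of Mxi1, a MAX partner that opposes MYC, where the other 10 had 8.81 to 17 TPM. Without the 4 parental tumors of high index, 7 were called higher and 3 lower, and Hif1a, Egln1, Ldhb and Eno1 lost the call. Car9, Hk1 and Pgk1 joined the higher genes there, as they did with the index as a covariate. With Ptprc as a covariate, 7 were called higher and 9 lower, the latter adding Aldoc, Pfkm, Pgam1, Slc2a1 and Tpi1, while Bhlhe40 lost its call and Mxi1 joined the higher genes. Vegfa, Pfkfb3, Gapdh, Egln3 and Ldha were called in all 3 of these fits. Quantile normalization ended the calls of Egln1, Gapdh, Eno1 and Ldha, and testing genes of any level those of Egln1 and Gapdh.

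**Figure D4:**
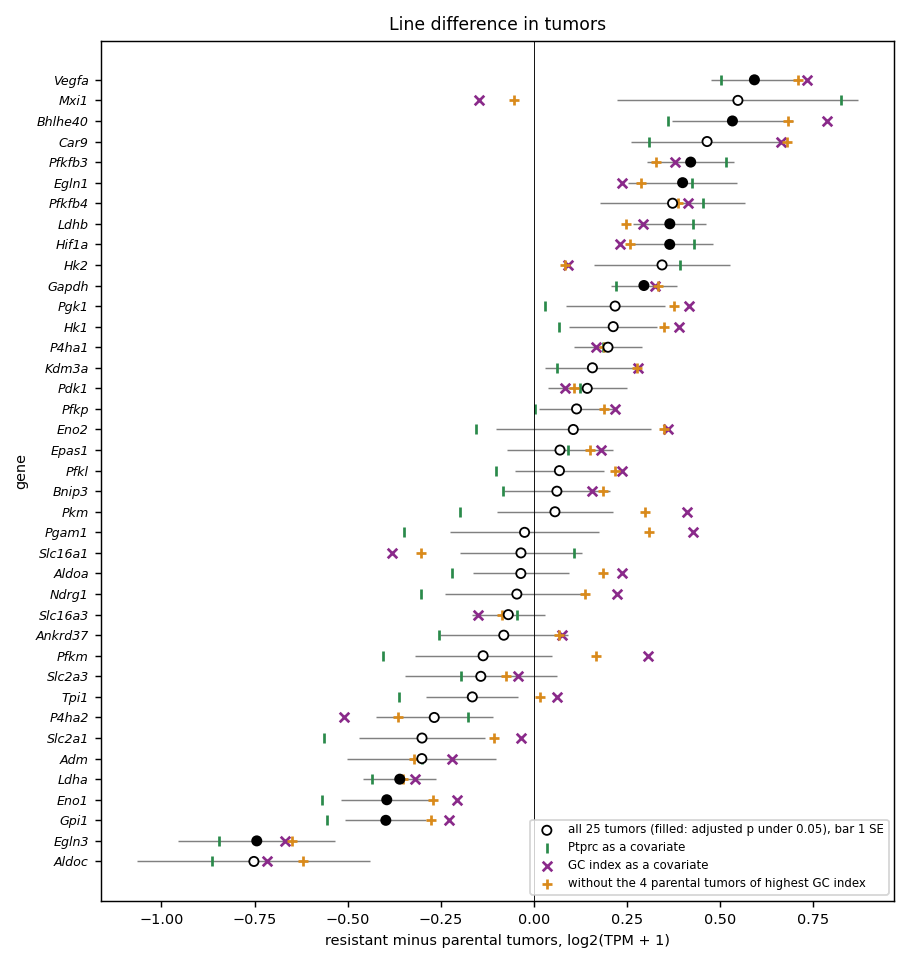
Resistant minus parental tumors on the log2(TPM + 1) scale for the 39 genes tested, sorted; circles show all 25 tumors with bars of 1 SE, filled where the adjusted p was under 0.05, and the other marks show 3 alternative fits. Vegfa at 0.59 and Egln3 at -0.74 keep their side in each fit, while Mxi1 goes from above 0 to below it with the GC index.

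Some pairs of these genes also varied together from tumor to tumor. For 8 pairs in each of the lines, 16 relations in all, correlations of log2(TPM + 1) were computed with permutation p-values of 100000 resamples, adjusted over the 16. In the 13 parental tumors, Car9 and Ankrd37 had Pearson's r = 0.84 (permutation p = 0.00040, adjusted 0.0064) and Spearman's rho = 0.86 (adjusted permutation p = 0.0056), and r was 0.88 without the 2 tumors farthest from the median of Car9. In the 12 resistant tumors r was 0.56 (adjusted permutation p = 0.111). Pgk1 and Bnip3 had r = 0.72 in parental tumors (rho 0.81, adjusted permutation p = 0.0172 and 0.0110) and 0.79 in resistant tumors (rho 0.66, adjusted permutation p = 0.0118 and 0.0864). Without the 2 farthest tumors r was 0.61 and 0.56. Within the 9 parental tumors outside the high GC index the r of these pairs was 0.83 and 0.62.

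No relation of Pgk1 with Ldha passed in parental tumors (r = 0.13, rho = 0.01, adjusted permutation p = 0.699 and 0.993), and none with Hif1a mRNA (r = -0.39, rho = -0.37, adjusted permutation p = 0.254 and 0.279). In resistant tumors the r of these pairs was 0.50 and 0.32, and neither passed. Against Ptprc, Pgk1 had r = -0.81 in parental tumors (rho -0.74, adjusted permutation p = 0.0118 and 0.0291), -0.63 without the 2 farthest tumors and -0.50 in the 9 tumors outside the high GC index. In resistant tumors it had r = -0.55 (rho -0.64, adjusted permutation p = 0.111 and 0.0864). TPM are shares of 1 total, so genes of host cells and of tumor cells are not independent measures, and the part of this in the relation was not tested. Under median-of-ratios scaling the r of Pgk1 with Ptprc was -0.87 in parental and -0.48 in resistant tumors. Of the remaining pairs none passed: r was 0.66 in parental and 0.50 in resistant tumors for Egln3 with Ndrg1, 0.62 and 0.12 for Vegfa with Adm, and 0.20 and 0.58 for Slc2a1 with Pdk1, with adjusted permutation p from 0.0533 to 0.737.

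**Figure D5:**
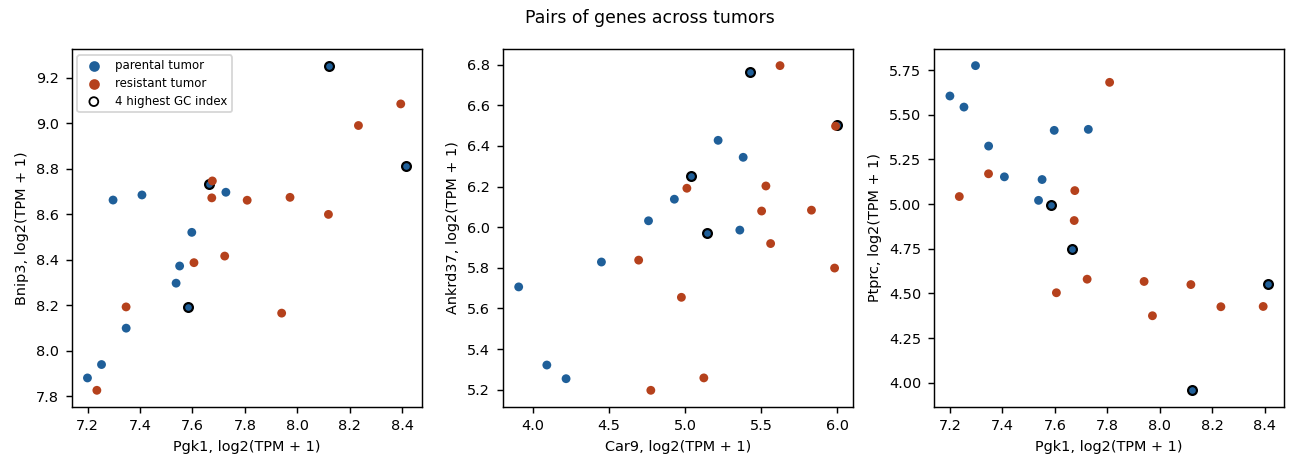
The 3 pairs of genes across the 25 tumors, log2(TPM + 1) on both axes, with parental tumors blue, resistant tumors red-brown and rings around the 4 parental tumors of highest GC index. Bnip3 rises with Pgk1 in both lines (r = 0.72 and 0.79), Ankrd37 rises with Car9, and Ptprc is lower where Pgk1 is higher.

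Other genes of the pathways were counted from lists. Of 29 further HIF targets tested, 9 were called higher and 2 lower from culture to tumor in the parental line and 22 and 0 in the resistant line. Over all genes, 16.1% were called higher and 5.99% lower in the parental line, and 35.3% and 15.0% in the resistant line. In both lines Angptl4, a lipase inhibitor, Ddit4, an inhibitor of mTORC1, and Lox, a collagen crosslinker, were called higher, at 4.19, 1.74 and 3.12 in the parental and 2.35, 1.89 and 4.07 in the resistant line. Lox is also a gene of fibroblasts, of whose 6 markers 4 were called higher in each line, and their part was not tested. Of 9 HIF pathway regulators 0 were called in the parental line by limma. In the resistant line 3 were higher, near the share over all genes, and 2 lower.

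The neighboring routes of carbon did not rise with the 40 genes. Of 20 genes of pyruvate entry and the TCA cycle, 0 were called higher and 7 lower in the parental line and 2 higher and 8 lower in the resistant line. Over all genes, 5.99% were called lower in the parental and 15.0% in the resistant line. Citrate synthase, Cs, fell by 0.94 (SE 0.20, limma adjusted p = 0.0024) in the parental and by 0.36 (SE 0.08, adjusted p = 0.00078) in the resistant line. Of 7 pentose phosphate genes, 1 was lower in the parental and 3 in the resistant line, and G6pdx, which commits glucose 6-phosphate to that route, fell by 0.95 (SE 0.13) in the latter. In the difference between the lines, Mpc1, a subunit of the mitochondrial pyruvate carrier, was the gene of these 2 lists that was called (1.03, SE 0.25, adjusted p = 0.012). Of the 29 further HIF targets 0 were called higher in it and 2 lower, among them Angptl4 at -1.84. The shares over all genes were 2.4% higher and 1.61% lower.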

How the data were processed

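RNA was sequenced in 32 libraries: 13 parental tumors, 12 resistant tumors, 2 parental and 5 resistant cultures. The authors deposited 1 table of TPM for 22329 genes, each column summing to 1000000, with 0 columns left unused. STAR and the human build GRCh38 are named, with no role, per the submitters' processing notes, although the symbols are of mouse; the quantifier is not given in the sources used here. Reads were not used, so depth is unknown and no count test was made.

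From the TPM, log2(TPM + 1) was tested with limma 3.58.1 (R 4.3.3; eBayes with a trend) and Benjamini-Hochberg adjustment over all genes tested, a gene being tested if the number of libraries at 1 TPM or more was no less than the size of the smaller group. Each pair of groups was fitted alone, and the difference between the lines was an interaction over all 32 libraries. Every fit pooled the spread of its groups, so an SE against the 2 parental cultures rests mostly on the other libraries. The procedure was tested on simulated data that gave each gene the same spread in every group. Groups of unequal spread, or parental cultures as far apart as these, were not simulated. Correlations and other steps used Python 3.11.15, numpy 2.4.6, pandas 2.3.3 and matplotlib 3.10.9. The GC index used 2146 genes above 0.55 and 1274 below 0.42 in GC share, which was known for 98.6% of 10046 expressed genes. Promoters are from RefSeq, GRCm38.p6; Slc2a3, Epas1, Bhlhe40 and Ndrg1 were not matched.

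The genes and lists were chosen with earlier results of these data known. Full statistics are given for genes called in the interaction, for up to 6 genes in each direction of each other comparison by lowest adjusted p, and for Slc2a1, Hk2, Ldha, Pgk1, Car9, Vegfa, Egln3 and Hif1a; up to 4 genes by lowest adjusted p are named from each further list. Values of Pfkp, Bnip3, Ndrg1, Ankrd37, P4ha1, P4ha2, Pdk1, Hk1 and Pfkl beyond that rule, and of Slc16a3, Mxi1 and other genes named for their own calls, were chosen after their values were seen. Other settings tried were quantile normalization, a pseudocount of 0.1, median-of-ratios scaling, a threshold of 5 TPM or none, rescaling without 13 mitochondrially encoded genes, array weights with robust moderation, 1 fit over all libraries, Ptprc or the GC index as a covariate between tumors, leaving out the 4 parental tumors of highest GC index, and leaving out each library.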

Additional observations from a re-analysis of the deposited data

Results flagged for a closer look

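Pfkp, the platelet type of phosphofructokinase, drew attention by 2 measures. Among the 5 resistant cultures, resistant culture 1 stood far above the others: its gap to the nearest culture was 0.82 of the range of the group on the log2(TPM + 1) scale, above the critical value of 0.71 for 5 samples. Of 36 genes examined in this way 1 was singled out, and chance alone does so in about 1 of 20 groups. In the difference of changes between the lines 1 of the 40 genes was called higher, about the share over all genes, 2.4%. For that gene, Pfkp, the change from culture to tumor differed between the lines by 1.25 on the log2 scale (limma adjusted p = 0.0113). This was 1.48 without resistant culture 1 and 0.63 without parental culture 2, where it no longer passed (adjusted p = 0.770).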

How the results depend on the processing

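No paired analysis was possible because replicate numbers of tumors and cultures name no shared animal, dish or day. Of the counts of genes called, 258 recomputed values lay within 1.5 times the reported one and 22 did not, and the cause was not tested. The 258 include counts of 0 that stayed 0, and most recomputed values come from leaving out 1 library. From culture to tumor in the parental line, genes called lower became 1 with array weights and 2 without the 4 tumors of highest GC index, and genes called higher ran from 2 to 12 when each library was left out, with 2 without parental culture 1. In the resistant line, genes called lower became 2 under quantile normalization and under median-of-ratios scaling. Between tumors, genes called higher became 13 with array weights and 12 when the GC index was a covariate, and genes called lower became 2 under quantile normalization and 9 with Ptprc as a covariate. Between cultures, genes called lower became 2 without a filter and ran from 0 to 6 when each library was left out, and genes called higher became 1 with array weights and ran from 0 to 1. In the difference of changes, genes called higher became 9 with array weights and 2 without the 4 tumors, and ran from 0 to 6. Signs turned from culture to tumor in the parental line for Pfkp (-0.0172 under median-of-ratios scaling, -0.0078 without the 4 tumors) and Ldha (-0.0733 under median-of-ratios scaling), in the resistant line for Ldha (0.0383 under quantile normalization), and between cultures for Hk2 (-0.0076 with array weights). Leaving out each library gave these ranges where a sign turned. From culture to tumor in the parental line they were -0.56 to 0.68 for Pfkp, -0.23 to 0.25 for Ldha, -0.0121 to 0.96 for Pdk1, -1.19 to 0.42 for Egln3, -0.30 to 2.41 for Bnip3, -0.0521 to 0.88 for P4ha1 and -0.15 to 0.69 for P4ha2. Between cultures they were -0.25 to 0.28 for Hk2, -0.62 to 0.19 for Pgk1, -0.42 to 0.0649 for Ldha, -0.68 to 0.0648 for Hif1a, -2.65 to 0.48 for Car9, -2.51 to 0.20 for Bnip3, -1.49 to 0.38 for Ndrg1 and -1.31 to 0.14 for Ankrd37. In the difference of changes they were -0.43 to 0.0605 for Ldha, -0.32 to 0.50 for Vegfa, -0.0127 to 3.12 for Car9, -0.14 to 2.57 for Bnip3, -0.42 to 1.45 for Ndrg1 and -0.22 to 1.23 for Ankrd37. With 2 parental cultures, each of these values rests on 1 or 2 libraries.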
